A study of Caenorhabditis elegans with 12 samples.

Results

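The cytochrome P450 genes of *C. elegans* that carry a *cyp-* symbol were followed across whole-animal RNA sequencing of 2 genotypes and 2 conditions. Members were taken as every gene of the count table whose symbol starts with *cyp-*, which gave 74 of 46934 genes. Each of the 4 groups held 3 samples of whole animals on day 1 of adulthood. Wild-type animals (strain N2) and *hsf-1*(*sy441*) mutants (strain TTV450, outcrossed) were raised at 20 °C. The control groups stayed at 20 °C, and the heat shock groups spent 30 min at 35 °C followed by 1 h at 20 °C. The *sy441* allele is considered to shorten HSF-1, the master transcription factor of the heat shock response, so that it lacks its activation domain. The allele is present in all cells of the mutant, and the *hsf-1* transcript is not removed by it. Its level was 154, 146 and 67.6 CPM in N2 at 20 °C and 83.4, 109 and 86.4 CPM in the mutant, so this transcript does not tell the genotypes apart. CPM is the gene's count per 1000000 counts of its library, with libraries scaled by TMM.

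Cytochrome P450 enzymes are heme-containing monooxygenases that insert oxygen into small lipophilic molecules. Most of them sit in the endoplasmic reticulum membrane and receive electrons from NADPH cytochrome P450 reductase, which is EMB-8 in *C. elegans*. They are known for the first phase of xenobiotic detoxification, mainly in the intestine, and also for making eicosanoids, sterol hormones and eggshell lipids. The name of each gene gives a family by number and a subfamily by letter. DAF-9, the P450 that makes dafachronic acid hormones, has no *cyp-* symbol and is given here only with its pathway.

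The 74 genes fell into 15 numbered families and 25 subfamilies, of which 13 had 1 member. All were annotated as protein coding on build WBcel235. Chromosome V carried 41 of them, chromosome II 12, chromosomes IV and X 7 each, chromosome III 6 and chromosome I 1. Members lying within 10 kb of each other made up 12 arrays with 44 genes, and 30 stood alone. The longest array lies on chromosome V from 3936326 to 3972991 and holds 10 genes of the *cyp-34A*, *cyp-35A* and *cyp-35B* subfamilies. An array of 8 genes on chromosome II from 9779181 to 9807569 consists of *cyp-13A1* to *cyp-13A8*. Neither the strand setting of the counting nor its treatment of reads with several matches is given in the sources used here. Counts of close copies within a subfamily are therefore uncertain. An exon of 16 members overlaps another gene, in 15 cases on the opposite strand, and reads of the partners cannot be told apart there.

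Total counts ranged from 68188334 to 109248499 per library. Replicates differed by much more than counting noise, with a median squared difference 13.2 to 160 times that of counting alone. The labels call the replicates biological but do not say whether they were separate cultures, so p-values may reflect technical spread alone. Ribosomal RNA took 7.39% and 7.24% of the counts in the first library of the mutant at 20 °C and after heat shock, against 0.975% to 4.04% in the other libraries. On the second principal component, replicate 3 of the N2 controls scored -62.9 against 71.8 and 59.8 for the other 2, and replicate 1 of heat-shocked N2 scored -80.1 against 9.71 and 5.86. The mutant groups were also spread on it, from -20.7 to 44.9 at 20 °C and from -61.4 to 48.5 after heat shock. Of the *cyp* genes, 69 passed the filter on low counts and were tested, while *cyp-25A6*, *cyp-33C1*, *cyp-34A7*, *cyp-35B2* and *cyp-35B3* did not, with 3 to 61 counts over all 12 libraries. A gene was called where the Benjamini-Hochberg adjusted p of edgeR's quasi-likelihood test over all 17946 tested genes was under 0.05. In whole animals, fewer cells of a type and less RNA per cell cannot be told apart.

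Most of the family's transcripts came from a few genes. The mean over the 12 libraries was above 1 CPM for 43 members and above 10 CPM for 13, and the 10 highest held 74.8% of the summed mean of 711 CPM. Per length, *cyp-31A2* was highest at 85.9 CPM per kb of exon, followed by *cyp-31A5* at 69.7 and *cyp-31A3* at 57.4 CPM per kb. CYP-31A2 and CYP-31A3 are needed redundantly to form the lipid permeability barrier of the eggshell, and the *cyp-31A* subfamily alone held 46.3% of the family's CPM. Next came *cyp-44A1*, which encodes a mitochondrial-type P450, at 46.4 CPM per kb. The xenobiotic-inducible *cyp-35A2* and *cyp-35C1* followed at 27.2 and 21.4 CPM per kb.

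The summed level of all 74 genes lay between 624 and 800 CPM. It was 695, 800 and 766 CPM in N2 at 20 °C and 787, 728 and 720 CPM in the mutant. After heat shock it was 678, 656 and 727 CPM in N2 and 666, 624 and 689 CPM in the mutant. The genotypes overlapped in both conditions. With heat shock the mutant sums lay lower without overlap and the N2 sums overlapped. Per total counts without TMM scaling the mutant sums overlapped too, at 702 to 746 CPM at 20 °C and 606.5 to 761 CPM after heat shock. The make-up of the sum was not the same in all groups, as the plot of subfamilies by library shows.

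**Figure D1:**
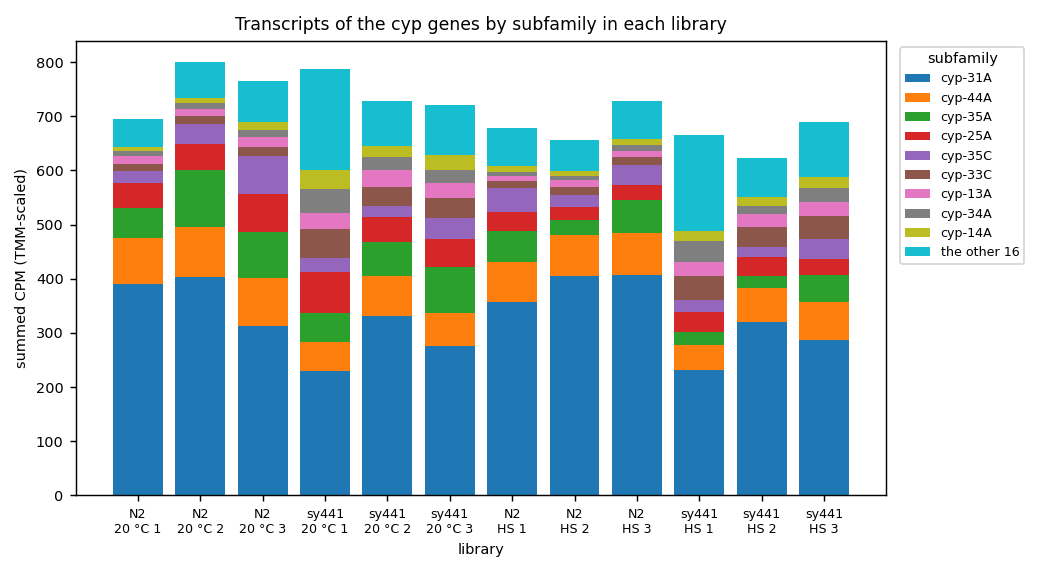
Summed CPM (y axis) of the cyp genes in each of the 12 libraries (x axis, genotype, condition and replicate, HS for heat shock), with bars stacked by subfamily and the other 16 subfamilies pooled. The *cyp-31A* share is 312 to 404 CPM in N2 and 231 to 331 CPM in the mutant at 20 °C, and totals stay between 624 and 800 CPM.

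Of the 12 subfamilies with several members, 4 had sums that lay higher in the mutant without overlap in both conditions. The other 8 overlapped at 20 °C, and after heat shock *cyp-29A* and *cyp-33D* also lay higher, *cyp-31A* lower and 5 overlapped. The *cyp-33C* genes summed to 12.6, 15.1 and 15.8 CPM in N2 at 20 °C and to 53.1, 35.0 and 36.6 CPM in the mutant, a ratio of means of 2.87. The *cyp-34A* genes summed to 10.2, 10.5 and 13.2 CPM against 43.8, 24.4 and 24.9 CPM. For *cyp-14A*, the sums were 6.83, 9.37 and 14.9 CPM against 36.4, 20.5 and 28.1 CPM. The *cyp-13A* genes were at 13.6 to 19.03 CPM in N2 and at 27.7 to 31.9 CPM in the mutant. After heat shock, the mutant again lay above N2, with ratios of means of 2.77 for *cyp-33C*, 3.00 for *cyp-34A*, 1.92 for *cyp-14A* and 2.47 for *cyp-13A*. The *cyp-31A* sum was the opposite, at 357 to 407 CPM in heat-shocked N2 and 232 to 320 CPM in the heat-shocked mutant. The *cyp-35A* sum overlapped in both conditions, with 55.3 to 106 CPM in N2 and 53.6 to 85.9 CPM in the mutant at 20 °C. These sums were not tested and weigh each gene by its level. In the mutant at 20 °C, the *cyp-14A* mean of 28.33 CPM held 20.03 CPM of *cyp-14A5*. The *cyp-13A* mean of 29.65 CPM held 15.81 CPM of *cyp-13A5* and 8.959 of *cyp-13A2*. The *cyp-34A* mean of 31.02 CPM held 14.1 CPM of *cyp-34A9* and 12.22 of *cyp-34A8*. Log2 fold changes over N2 at 20 °C were positive for 8 of 11 tested *cyp-13A* and 5 of 5 *cyp-14A* genes. They were positive for 8 of 10 *cyp-33C* and 5 of 7 *cyp-34A* genes. Among all tested genes taken singly, 20.9% lay higher in the mutant without overlap at 20 °C and 18% after heat shock.

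**Figure D2:**
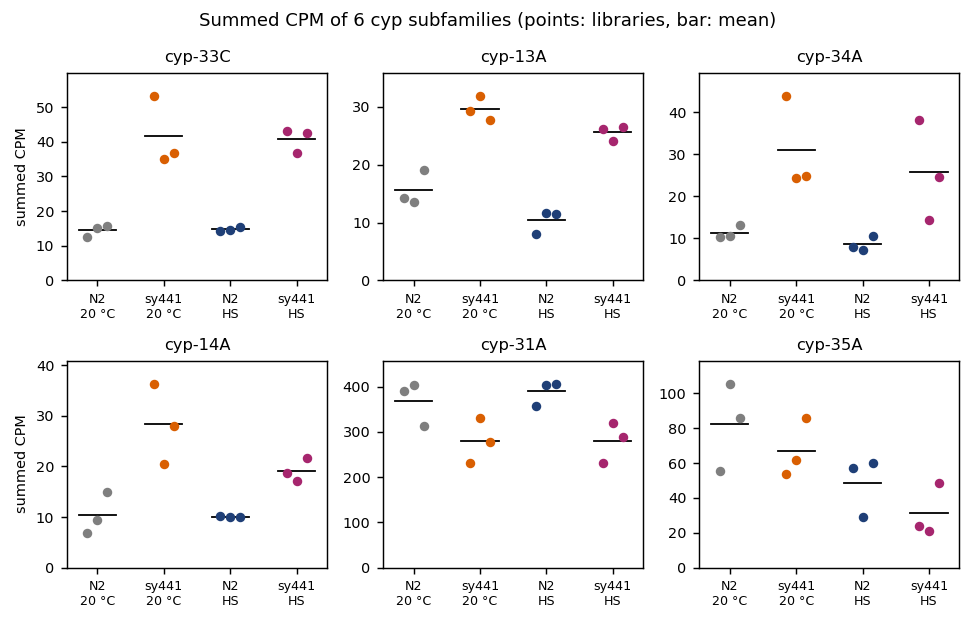
Summed CPM (y axes, from 0) of 6 subfamilies in the 4 groups (x axes, HS for heat shock); each point is 1 library and each bar the mean of 3. The *cyp-33C*, *cyp-13A*, *cyp-34A* and *cyp-14A* sums do not overlap between genotypes in either condition, while *cyp-31A* lies lower without overlap after heat shock and *cyp-35A* overlaps.

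The first comparison asked which *cyp* genes differed between *hsf-1*(*sy441*) and N2 without heat stress. In the mutant 7 members rose and 0 fell by edgeR, namely *cyp-13A5*, *cyp-14A5*, *cyp-32B1*, *cyp-33C4*, *cyp-33C8*, *cyp-34A8* and *cyp-37A1*. They are 10.1% of the 69 tested, beside 6.24% of all tested genes called higher and 0.591% called lower. At an unadjusted p under 0.05, 26 of 69 members were higher and 3 lower, beside 18.1% and 6.51% of all genes. DESeq2 called 19 of 71 higher and 1, *cyp-13A4*, lower, beside 9.87% and 3.13% of all genes. Its 19 were the 7 above and *cyp-13A11*, *cyp-14A2*, *cyp-14A4*, *cyp-25A3*, *cyp-29A3*, *cyp-33C3*, *cyp-33C7*, *cyp-34A9*, *cyp-35D1*, *cyp-36A1*, *cyp-37B1* and *cyp-43A1*. The median log2 fold change of the members was 0.68, beside 0.13 over all tested genes. Of the members, 49 of 69 were positive, beside 10369 of 17946 genes. All 3 mutant libraries lay above all 3 N2 libraries for 29 members, or 42%, against 20.9% of all genes. They lay below for 3 members, or 4.35%, against 8.87% of all genes. The 26 and the 29 members include *cyp-13A11* and *cyp-34A10*, which passed the low-count filter only with the mutant libraries. Shares without these genes were not computed.

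The smallest p was that of *cyp-33C8*, a gene of the largest *cyp-33* subfamily (chromosome V, 3800782 to 3803542). It was at 3.02, 2.56 and 4.74 CPM in N2 and at 15.3, 14.1 and 15.8 CPM in the mutant. Every mutant library was thus above every N2 library, and the log2 fold change was 2.13 ± 0.27 (SE, adjusted p = 0.00105). *cyp-33C4*, in an array of 5 *cyp-33C* genes (chromosome V, 2236140 to 2252591), was at 0.885, 1.40 and 1.38 CPM in N2 and at 8.01, 4.16 and 3.14 CPM in the mutant. Its log2 fold change was 2.06 ± 0.37 (SE, adjusted p = 0.00782). Of the 10 tested *cyp-33C* genes, 8 had a positive log2 fold change, with a median of 1.51.

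The largest change among the called members was that of *cyp-32B1* (chromosome V, 2197997 to 2201415). Its levels were 0.357, 0.378 and 0.622 CPM in N2, and 7.84, 2.64 and 2.39 CPM in the mutant. The groups did not overlap, with the first mutant library far above the other 2, and the log2 fold change was 3.24 ± 0.54 (SE, adjusted p = 0.00501). *cyp-32A1*, the other *cyp-32* gene, was at 1.81 to 2.17 CPM against 2.81 to 5.06 CPM and was not called (adjusted p = 0.113).

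The remaining 4 called genes belong to different subfamilies. *cyp-14A5* (chromosome V, 5421018 to 5423282) was at 4.36, 6.18 and 10.1 CPM in N2 and at 27.7, 14.02 and 18.4 CPM in the mutant (log2 fold change 1.54 ± 0.32, SE, adjusted p = 0.0152). *cyp-37A1* (chromosome II, 14013819 to 14016965), which overlaps F01D5.8 on the other strand, was at 7.55, 6.76 and 4.96 CPM in N2. In the mutant it was at 37.3, 14.5 and 12.2 CPM, again with a high first library (log2 fold change 1.73 ± 0.40, SE, adjusted p = 0.0246). The groups did not overlap for either gene. *cyp-34A8*, inside the 10-gene array, was at 5.85, 5.13 and 6.14 CPM in N2 and at 10.4, 11.8 and 14.4 CPM in the mutant (adjusted p = 0.0251). *cyp-13A5*, in the *cyp-13A* array, was at 6.70, 5.27 and 9.58 CPM against 12.9, 18.01 and 16.5 CPM (adjusted p = 0.0348). Their log2 fold changes were 1.10 and 1.14, and neither overlapped between genotypes.

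The calls of *cyp-33C8* and *cyp-32B1* held in all 15 other fits, at adjusted p of at most 0.0265 and 0.0362. *cyp-33C4* lost its call without the first N2 control (adjusted p = 0.0536), and the other 4 calls were each lost on leaving out 3 to 5 single libraries. The call of *cyp-33C4* was also lost in the fit of only the groups compared and without both first mutant libraries. Its highest adjusted p over all fits was 0.0616. Between 2 and 9 members were called with 1 library left out, and only 2 without the first N2 control, 3 without the second and 3 without the first mutant control library. Over all genes, 1226 were called with all libraries and 342, 510 and 280 in these 3 fits. Without both first mutant libraries, *cyp-33C8* and *cyp-32B1* were the 2 called. The median log2 fold change of the members was 0.29 without the first N2 control, 0.43 without the second, 0.32 without the first mutant control and 0.44 without the third. Over all tested genes the median in these fits was -0.04, -0.07, -0.12 and -0.10.

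**Figure D3:**
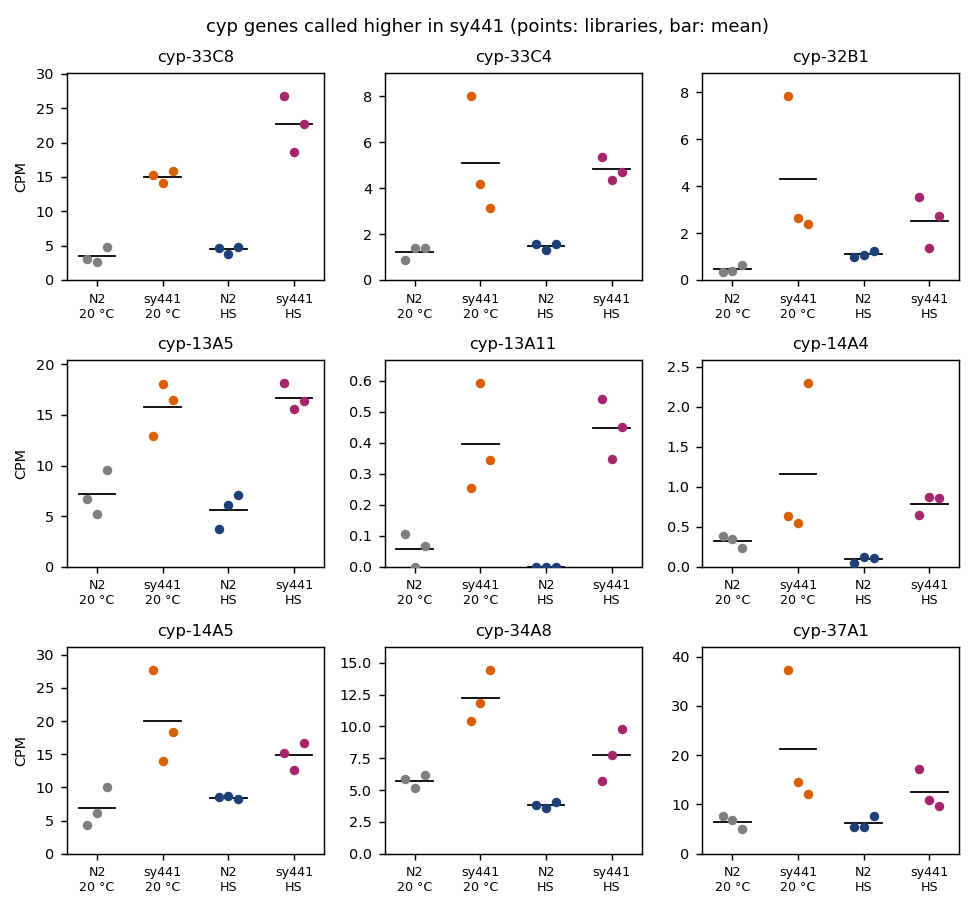
Levels in CPM (y axes, from 0) of the 9 cyp genes called higher in the mutant in either condition, for N2 and *hsf-1*(*sy441*) at 20 °C and after heat shock (HS); each point is 1 library and each bar the mean of 3. *cyp-33C8* is at 2.56 to 4.84 CPM in all 6 N2 samples and at 14.1 to 26.8 CPM in all 6 mutant samples.

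Among the members below the threshold at 20 °C, several had high fold changes that rested on unequal mutant libraries. *cyp-37B1* was at 0.106, 0.140 and 0.724 CPM in N2 and at 10.8, 1.31 and 1.55 CPM in the mutant (log2 fold change 3.79 ± 1.13, SE, adjusted p = 0.0600). *cyp-34A9* was at 2.13, 3.46 and 4.93 CPM in N2 and at 27.2, 7.79 and 7.28 CPM in the mutant (adjusted p = 0.0726). *cyp-36A1*, a P450 that acts downstream of EGL-9 and HIF-1 in behavioural responses to oxygen, was at 2.39, 4.34 and 3.61 CPM in N2. It was at 23.3, 6.44 and 6.61 CPM in the mutant (log2 fold change 1.81 ± 0.53, SE, adjusted p = 0.0559). In each of these the groups did not overlap and the first mutant library was by far the highest.

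This library was the highest of its group for 40 of the 69 tested members and the highest of all 12 libraries for 26. For 16 members it exceeded both other mutant controls more than 2 times. The first heat-shocked mutant library did so for 12 members, 7 of them the same genes, namely *cyp-13A10*, *cyp-13B1*, *cyp-33E3*, *cyp-34A9*, *cyp-35B1*, *cyp-36A1* and *cyp-37B1*. These are the 2 libraries with the most ribosomal RNA. Without both of them 2 members were called at 20 °C and 3 after heat shock. Over all genes, the calls went from 1226 to 284 at 20 °C and from 485 to 304 after heat shock. Whether ribosomal RNA had a part in this was not tested.

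The next genes by p at 20 °C were also uncalled. *cyp-33C3* was at 1.48 to 1.78 CPM in N2 and 3.17 to 6.14 CPM in the mutant (adjusted p = 0.0701), and *cyp-25A3* at 3.80 to 5.94 CPM against 7.75 to 12.7 CPM (adjusted p = 0.0705). *cyp-35D1*, which metabolizes the anthelmintic thiabendazole, was at 0.792 to 2.00 CPM and 3.05 to 5.37 CPM (adjusted p = 0.0844). *cyp-43A1* was at 4.38 to 7.09 CPM and 9.16 to 21.6 CPM (adjusted p = 0.0877). *cyp-33C7* and *cyp-33C9* followed, with log2 fold changes of 1.45 and 1.00 and adjusted p of 0.0908 and 0.0927.

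All 5 *cyp-14A* genes, a subfamily known for induction by xenobiotics, had positive log2 fold changes at 20 °C. *cyp-14A5* was called by edgeR, and DESeq2 also called *cyp-14A2* (adjusted p = 0.0326) and *cyp-14A4* (adjusted p = 0.0444). *cyp-14A2* was at 0.753, 1.67 and 2.80 CPM in N2 and 5.98, 3.39 and 4.12 CPM in the mutant (edgeR adjusted p = 0.0741). *cyp-14A4* (edgeR adjusted p = 0.0916) and *cyp-14A1* (edgeR adjusted p = 0.132) had log2 fold changes of 1.84 and 0.98. *cyp-14A3* was at or below 0.667 CPM in every library and its groups overlapped (log2 fold change 0.18 ± 1.09, SE).

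The members at negative log2 fold changes included the abundant ones. *cyp-44A1*, whose exon overlaps *npp-24* on the same strand, was at 85.96, 92.0 and 89.0 CPM in N2 and 53.3, 75.3 and 59.7 CPM in the mutant (log2 fold change -0.50 ± 0.19, SE, adjusted p = 0.13). *cyp-31A2* was at 165, 172 and 149 CPM in N2 and 105, 138 and 117 CPM in the mutant (log2 fold change -0.43 ± 0.18, SE, adjusted p = 0.16). Neither was called, although all mutant libraries lay below all N2 libraries. *cyp-31A3* and *cyp-31A5* had log2 fold changes of -0.32 and -0.43, with overlapping libraries. The low-abundance *cyp-13A4* was at 0.687 to 1.06 CPM in N2 and 0.277 to 0.357 CPM in the mutant (adjusted p = 0.139).

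The *cyp-35A* genes are known for xenobiotic induction and for a role in fat storage. None of the 5 had a positive log2 fold change at 20 °C, none was called by edgeR or DESeq2, none had an unadjusted p under 0.05, and the median was -0.26. After heat shock 2 of the 5 were positive. *cyp-35A3* was at 6.68, 22.4 and 13.97 CPM in N2 and 2.89, 4.09 and 13.3 CPM in the mutant (log2 fold change -1.09 ± 0.69, SE). *cyp-35A2* was at 44.6, 73.0 and 65.6 CPM against 46.1, 52.8 and 65.1 CPM, with overlapping groups. The log2 fold changes of *cyp-35A1*, *cyp-35A4* and *cyp-35A5* were -0.66, -0.26 and -0.24, each smaller than its standard error. *cyp-35C1* was at 22.5, 36.2 and 69.6 CPM in N2 and 25.97, 20.6 and 38.2 CPM in the mutant (log2 fold change -0.60 ± 0.40, SE). *cyp-35B1*, also known as *dod-13* and a target of DAF-16, stayed at or below 1.25 CPM in all libraries.

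*cyp-29A3* and *cyp-33E2*, known for forming eicosanoids from polyunsaturated fatty acids, were not called by edgeR. *cyp-29A3* was at 0.74, 1.39 and 2.15 CPM in N2 and 5.52, 2.55 and 2.30 CPM in the mutant at 20 °C, without overlap (log2 fold change 1.28 ± 0.44, SE, adjusted p = 0.0924). DESeq2 called it higher (adjusted p = 0.0497), and edgeR did so without the third N2 control (adjusted p = 0.0453). *cyp-33E2* was at 3.91, 4.38 and 9.02 CPM against 8.995, 5.37 and 6.58 CPM, with overlapping groups. *cyp-33E1* and *cyp-29A2* had log2 fold changes of 0.39 ± 0.29 and 0.19 ± 0.29 (SE), and their groups overlapped too. *cyp-13A12*, which acts in the response to reoxygenation, was at 0.779, 0.658 and 0.294 CPM in N2 and 1.121, 1.29 and 1.93 CPM in the mutant (adjusted p = 0.143). Its groups did not overlap. *cyp-13A7*, which responds to rifampicin, was at or below 0.619 CPM in every library and its log2 fold change of 0.67 was smaller than its standard error of 1.06.

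**Figure D4:**
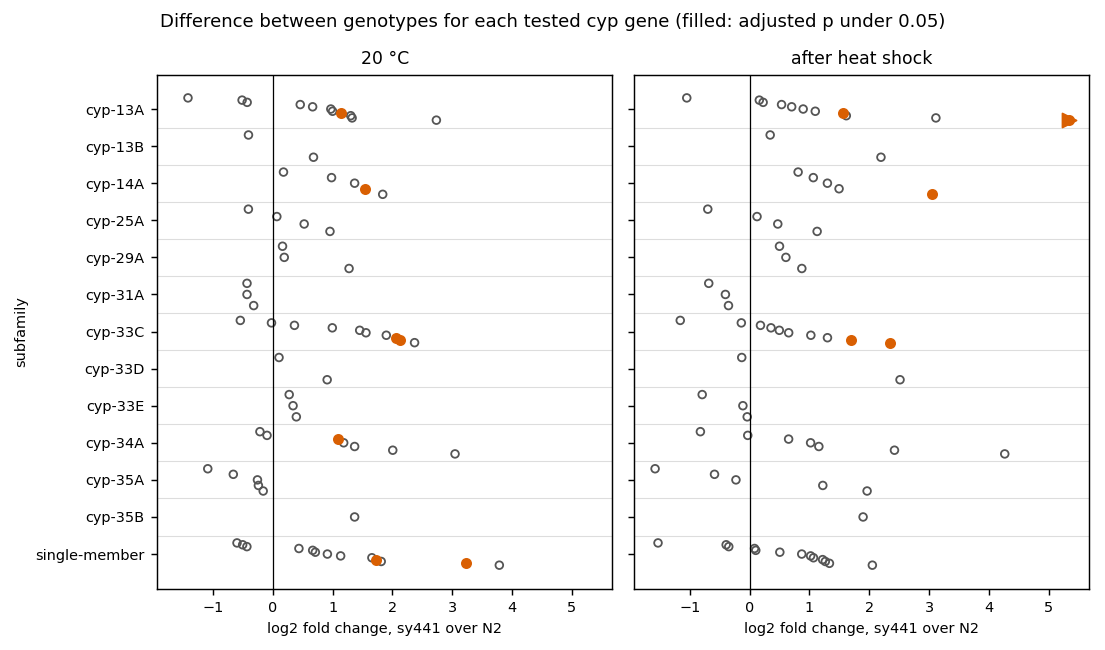
Log2 fold change of the mutant over N2 (x axes) for the 69 tested cyp genes, by subfamily (rows, subfamilies with 1 member pooled), at 20 °C (left) and after heat shock (right). Filled points had an adjusted p under 0.05 and the triangle is *cyp-13A11* at its lower bound of 40.4-fold; all 5 *cyp-14A* genes lie right of 0 in both panels and all 3 *cyp-31A* genes left of 0.

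The same question was put to heat-shocked animals, in libraries that were all different from those kept at 20 °C. The 2 comparisons still came from 1 fit. Same-numbered mutant libraries of the 2 conditions correlated at 0.20 to 0.34, so the comparisons are not independent repeats. In the mutant 5 members rose and 0 fell, 7.25% of those tested, beside 2.32% of all genes called higher and 0.379% called lower. At an unadjusted p under 0.05, 22 of 69 members were higher and 3 lower, beside 13.2% and 5.64% of all genes. DESeq2 called 11 of 71 higher and 1, *cyp-31A5*, lower, beside 6.18% and 1.54% of all genes. Its 11 were the 5 called by edgeR and *cyp-13A2*, *cyp-14A2*, *cyp-25A3*, *cyp-34A8*, *cyp-34A9* and *cyp-34A10*. The median log2 fold change was 0.65, also with *cyp-13A11* at its bound, beside 0.04 over all tested genes. The mutant libraries lay above the N2 libraries without overlap for 23 members, or 33.3%, against 18% of all genes. They lay below for 4, or 5.8%, against 11.1% of all genes. The 5, the 22 and the 23 include *cyp-13A11*, and the 22 also *cyp-34A10*. Both genes passed the low-count filter only with the mutant libraries, and shares without them were not computed.

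*cyp-33C8* again had the smallest p. It was at 4.69, 3.81 and 4.84 CPM in heat-shocked N2 and at 26.8, 18.6 and 22.8 CPM in the mutant (log2 fold change 2.35 ± 0.27, SE, adjusted p = 0.000648). *cyp-13A5* was at 3.74, 6.10 and 7.10 CPM in N2 and 18.2, 15.6 and 16.3 CPM in the mutant (log2 fold change 1.56 ± 0.29, SE, adjusted p = 0.0146). *cyp-33C4* was at 1.58, 1.32 and 1.57 CPM against 5.37, 4.36 and 4.72 CPM (log2 fold change 1.70 ± 0.37, SE, adjusted p = 0.0284). These 3 genes were called in both conditions and their groups did not overlap in either.

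The other 2 calls were of low-abundance genes. *cyp-13A11* (chromosome III, 13021006 to 13024045) had no count in any heat-shocked N2 library and 36, 26 and 37 counts in the mutant. With N2 set to a floor of 3 counts in all, it was at least 40.4-fold higher (adjusted p = 0.0236). With at most 8 counts in any N2 library, it passed the low-count filter through the mutant libraries alone. Its place among the tested genes thus rests on the genotype where it is high. In animals kept at 20 °C it had 8, 0 and 6 counts in N2 and 21, 49 and 29 counts in the mutant (adjusted p = 0.154). *cyp-14A4* (chromosome X, 13282043 to 13284197) was at 0.0481, 0.118 and 0.114 CPM in heat-shocked N2 and at 0.645, 0.870 and 0.856 CPM in the mutant. Its log2 fold change was 3.06 ± 0.67 (SE, adjusted p = 0.0299).

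Of these 5 calls, that of *cyp-33C8* held in all 15 other fits, at adjusted p of at most 0.00955. *cyp-13A11*, *cyp-14A4* and *cyp-33C4* each lost their call on leaving out any 1 of the 6 libraries, and *cyp-13A5* on leaving out 4 of them. With 1 library left out, 1 or 2 members were called, 1 without the first or second N2 library or the first mutant library and 2 without the third N2 library, the second mutant library or the third mutant library. Over all genes, 485 were called with all libraries and 140 to 234 with 1 left out.

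The members called at 20 °C alone were also higher by value after heat shock. *cyp-34A8* was at 3.79, 3.62 and 4.10 CPM in N2 and 5.72, 7.79 and 9.82 CPM in the mutant (log2 fold change 1.02 ± 0.26, SE, adjusted p = 0.0531). *cyp-14A5* was at 8.18 to 8.65 CPM against 12.7 to 16.7 CPM (adjusted p = 0.19), and *cyp-37A1* at 5.45 to 7.67 CPM against 9.76 to 17.1 CPM (adjusted p = 0.186). *cyp-32B1* was at 0.987, 1.05 and 1.22 CPM in N2 and 3.53, 1.37 and 2.72 CPM in the mutant (log2 fold change 1.22 ± 0.50, SE, adjusted p = 0.211). None of these 4 genes overlapped between genotypes.

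Further genes at an unadjusted p under 0.05 after heat shock were *cyp-34A9*, *cyp-25A3* and *cyp-14A2*, with log2 fold changes of 2.42, 1.13 and 1.495 and adjusted p of 0.0676, 0.0685 and 0.093. *cyp-13A2* had a log2 fold change of 1.10 (adjusted p = 0.111), *cyp-34A10* of 4.27 on 4 counts in N2 against 69 (adjusted p = 0.15), and *cyp-14A1* of 1.06 (adjusted p = 0.163). *cyp-34A10* too passed the low-count filter only with the mutant libraries. On the negative side, *cyp-31A5* was at 113, 132 and 130 CPM in N2 and 65.3, 87.4 and 80.8 CPM in the mutant (log2 fold change -0.69 ± 0.20, SE, adjusted p = 0.095). *cyp-31A2* was at 154 to 163 CPM against 99.3 to 137 CPM (adjusted p = 0.245). Neither overlapped between genotypes, as was also so for *cyp-44A1* at 74.3 to 78.6 CPM against 45.9 to 70.2 CPM (adjusted p = 0.358). *cyp-35A3* had a log2 fold change of -1.58 ± 0.71 (SE, adjusted p = 0.247).

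Side by side, 42 of the 69 tested members had a positive log2 fold change in both conditions, 12 a negative one in both and 15 changed sign. In 9 genes a call was made in at least 1 condition and in 3 in both. Of all 17946 tested genes, 10369 were positive at 20 °C and 9565 after heat shock, and 6.24% and 2.32% were called higher. The share of all genes positive or called in both conditions was not computed.

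The effect of heat shock itself was then examined within each genotype. In N2 no *cyp* gene passed the threshold in edgeR, beside 0.78% of all tested genes called higher and 0.223% called lower. At an unadjusted p under 0.05, 3 of 69 members were higher and 9 lower, beside 5.34% and 2.55% of all genes. DESeq2 called *cyp-32A1* higher and *cyp-25A2* and *cyp-14A2* lower, 3 of 71, beside 1.89% of all genes higher and 0.891% lower. The median log2 fold change was -0.33, beside 0.05 over all tested genes, and 21 of 69 were positive, beside 9942 of 17946. It was -0.59 without the first control, -0.19 without the third control and -0.17 without the second heat shock library. All heat shock libraries lay below all controls for 15 members, or 21.7%, against 5.84% of all genes, and above for 5, or 7.25%, against 8.19% of all genes.

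In the mutant again no member was called, beside 0.279% of all genes higher and 0.29% lower. At an unadjusted p under 0.05, 2 of 69 members were higher and 8 lower, beside 2.98% and 3.84% of all genes. DESeq2 called *cyp-25A1*, *cyp-25A2* and *cyp-35A2* lower, 3 of 72, and 0 higher, beside 1.16% of all genes lower and 0.92% higher. The median was -0.29, beside -0.0032 over all genes, and ranged from -0.52 without the second control to -0.15 without the first control or the second heat shock library. Libraries lay below without overlap for 10 members, or 14.5%, against 6.68% of all genes, and above for 4, or 5.8%, against 5.37% of all genes. A negative log2 fold change was found in both genotypes for 38 members and a positive one in both for 13. Of all 17946 tested genes, 9942 were positive with heat shock in N2 and 8884 in the mutant.

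Mutant libraries with the same replicate number deviated together from their group means. When only the 6 mutant libraries were fitted, with a block for the replicate number, 4 of 67 tested members fell with heat shock and 0 rose. Beside these stood 2.07% of 17159 genes called lower and 1.53% called higher. This fit was chosen after seeing the data. The 4 members were *cyp-25A1* (log2 fold change -1.82, adjusted p = 0.00155), *cyp-35A2* (-1.32, adjusted p = 0.00351), *cyp-25A2* (-1.05, adjusted p = 0.0316) and *cyp-14A2* (-1.23, adjusted p = 0.0378). The block in the model of all 12 libraries called none.

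*cyp-25A2* (chromosome III, 3835221 to 3837211), in an array with *cyp-25A1* and *cyp-25A3*, had the smallest p for heat shock in both genotypes. It was at 20.9, 19.2 and 32.4 CPM in N2 at 20 °C and 13.99, 8.78 and 9.71 CPM after heat shock (log2 fold change -1.16 ± 0.28, SE, adjusted p = 0.0889). In the mutant it was at 31.95, 17.8 and 26.2 CPM and then at 11.7, 13.1 and 10.5 CPM (log2 fold change -1.10 ± 0.28, SE, adjusted p = 0.136). Groups did not overlap in either genotype, and in N2 the call was made without the first heat shock library (adjusted p = 0.0437).

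*cyp-25A1* was at 16.5, 17.9 and 27.1 CPM in N2 and 11.5, 3.04 and 7.54 CPM after heat shock (log2 fold change -1.47 ± 0.49, SE, adjusted p = 0.296). In the mutant the values were 22.8, 11.9 and 11.6 CPM and then 7.65, 2.92 and 3.05 CPM (log2 fold change -1.77 ± 0.50, SE, adjusted p = 0.191). Again the groups did not overlap. *cyp-25A3* was at 3.80 to 5.94 CPM and 2.63 to 4.02 CPM in N2, which overlapped.

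*cyp-35A2* was at 44.6, 73.0 and 65.6 CPM in N2 and 39.0, 22.1 and 41.2 CPM after heat shock (adjusted p = 0.432). In the mutant it was at 46.1, 52.8 and 65.1 CPM and then at 18.2, 15.6 and 34.2 CPM (log2 fold change -1.27 ± 0.33, SE, adjusted p = 0.137). *cyp-14A2* was at 0.753, 1.67 and 2.80 CPM in N2 and 0.638, 0.519 and 0.797 CPM after heat shock, while the mutant values were 3.39 to 5.98 CPM and 1.78 to 1.91 CPM. The groups overlapped for *cyp-14A2* in N2 and in none of the other 3 contrasts of these genes.

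**Figure D5:**
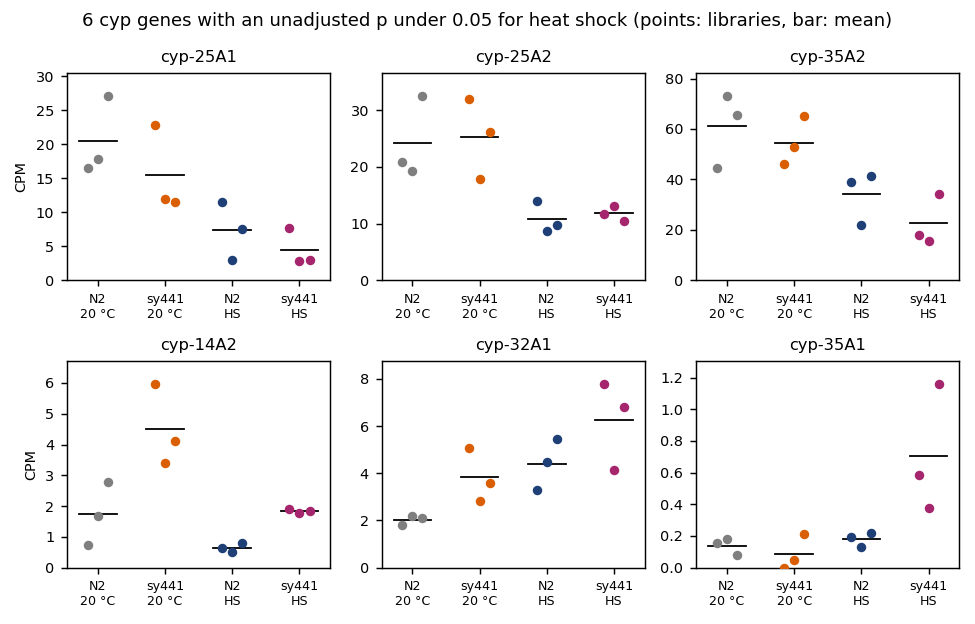
Levels in CPM (y axes, from 0) of 6 cyp genes among those with an unadjusted p under 0.05 for heat shock (HS), in N2 and *hsf-1*(*sy441*); each point is 1 library and each bar the mean of 3. *cyp-25A1*, *cyp-25A2* and *cyp-35A2* lie lower after heat shock without overlap in both genotypes, and *cyp-32A1* lies higher in N2.

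Other low p-values for heat shock in N2 belonged to *cyp-13A2*, at 3.96 to 5.22 CPM and then 1.94 to 2.84 CPM (adjusted p = 0.301), and to *cyp-14A4*, at 0.238 to 0.383 CPM and then 0.0481 to 0.118 CPM (adjusted p = 0.399). *cyp-34A8* was at 5.13 to 6.14 CPM and 3.62 to 4.10 CPM (adjusted p = 0.588). *cyp-35A4* overlapped, with a log2 fold change of -1.68 ± 0.66 (SE, adjusted p = 0.449). On the higher side, *cyp-32A1* was at 1.81, 2.17 and 2.11 CPM in N2 and 3.29, 4.47 and 5.45 CPM after heat shock (log2 fold change 1.118 ± 0.33, SE, adjusted p = 0.206). *cyp-32B1* had a log2 fold change of 1.26 ± 0.51 (SE, adjusted p = 0.486) and *cyp-25A4* of 0.60 ± 0.27 (SE, adjusted p = 0.588).

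In the mutant, *cyp-35A1* was at 0, 0.0484 and 0.214 CPM at 20 °C and 0.585, 0.375 and 1.16 CPM after heat shock, on 22 against 162 counts (adjusted p = 0.452). *cyp-33C9* was at 7.32 to 10.9 CPM and 2.88 to 6.02 CPM (adjusted p = 0.444), and *cyp-34A8* at 10.4 to 14.4 CPM and 5.72 to 9.82 CPM (adjusted p = 0.514). *cyp-33C8* was at 14.1 to 15.8 CPM and 18.6 to 26.8 CPM (log2 fold change 0.59 ± 0.26, SE, adjusted p = 0.645). *cyp-13A12* had a log2 fold change of -1.17 ± 0.53 (SE, adjusted p = 0.701) and *cyp-13A2* of -0.90 ± 0.34 (SE, adjusted p = 0.486). Of the 4 members highest per kb, *cyp-31A5* had the highest log2 fold change with heat shock in N2, at 0.22 ± 0.20 (SE). In the mutant, where it was not the highest, its log2 fold change was -0.03 ± 0.20 (SE). Those of *cyp-31A2*, *cyp-31A3* and *cyp-44A1* lay between -0.22 and 0.08 in both genotypes.

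Whether heat shock acted differently in the 2 genotypes was tested as an interaction. No *cyp* gene was called by edgeR or by DESeq2, beside 0% of all tested genes higher and 0.0111% lower in edgeR. DESeq2 called 0.0192% of all genes higher and 0.139% lower. At an unadjusted p under 0.05 stood 1 member on each side, beside 0.591% of all genes higher and 1.94% lower. *cyp-13A11*, without counts in heat-shocked N2, lay on the higher side, and *cyp-32B1* had an interaction of -2.02 ± 0.71 (SE) on the log2 scale. Both had an adjusted p of 1.

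The genes that work with the P450 enzymes were described from lists chosen by function. Of the redox partners, which pass electrons to P450 enzymes, 0 of 3 were called by edgeR or DESeq2 in any comparison, and 1 reached an unadjusted p under 0.05, after heat shock between genotypes. *emb-8* was at 179, 148 and 98.8 CPM in N2 and 164, 166 and 140 CPM in the mutant at 20 °C (log2 fold change 0.14 ± 0.25, SE). The summed level of *emb-8*, *cytb-5.1* and *cytb-5.2* was 295 to 364 CPM in N2 and 307 to 329 CPM in the mutant.

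In the dafachronic acid list, 2 of 6 tested genes rose at 20 °C in the mutant, beside the 6.24% of all genes. They were *ncr-1* and *ncr-2*, the Niemann-Pick C1 homologues that move sterol to the site of hormone synthesis. *ncr-1* was at 5.67, 5.41 and 4.83 CPM in N2 and 23.9, 13.4 and 8.404 CPM in the mutant, with the first mutant library highest (log2 fold change 1.52 ± 0.39, SE, adjusted p = 0.0347). *ncr-2* was at 1.15, 0.784 and 0.804 CPM against 2.48, 3.34 and 2.30 CPM (log2 fold change 1.57 ± 0.39, SE, adjusted p = 0.03). Whether these calls hold without single libraries was not examined. After heat shock edgeR called 0 of 6 between genotypes, with 3 of 6 higher at an unadjusted p under 0.05. DESeq2 called *dhs-16* higher, beside 6.18% of all genes. There the adjusted p was 0.132 for *ncr-1* and 0.209 for *ncr-2*, and *daf-36* lay lower in the mutant without overlap (adjusted p = 0.274). With heat shock in the mutant, DESeq2 called *daf-36* lower, beside 1.16% of all genes, and edgeR did not (adjusted p = 0.23). The P450 gene *daf-9* itself was below 1 CPM in every library (log2 fold change 0.81 ± 0.69, SE).

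Of 8 genes that make the polyunsaturated fatty acid substrates of P450 enzymes or hydrolyse their epoxide products, 1 rose at 20 °C, beside 6.24% of all genes. After heat shock edgeR called 0 of 8 between genotypes, with 1 at an unadjusted p under 0.05. DESeq2 called *fat-2* higher there, beside 6.18% of all genes. With heat shock in N2, DESeq2 called *elo-1* and *elo-2* lower, beside 0.891% of all genes, and edgeR called neither. At 20 °C *fat-2*, the delta-12 desaturase, was at 256, 271 and 345 CPM in N2 and 1278, 517 and 444 CPM in the mutant (log2 fold change 1.36 ± 0.36, SE, adjusted p = 0.0418). The first mutant library was by far the highest. Whether this call holds without single libraries was not examined. None of 19 genes listed as regulators of *cyp* genes was called by edgeR in any comparison, while DESeq2 called *elt-2* higher in the mutant at 20 °C and *nhr-8* lower with heat shock in the mutant. Of all genes, DESeq2 called 9.87% higher in the first of these comparisons and 1.16% lower in the second. At 20 °C, 3 of the 19 were higher at an unadjusted p under 0.05, a share below the 18.1% of all genes, namely *elt-2*, *nhr-48* and *hif-1*, with log2 fold changes of 1.15, 0.79 and 0.65. After heat shock 2 of the 19 were higher in the mutant at that p, beside 13.2% of all genes, and with heat shock 3 were lower in the mutant, beside 3.84% of all genes. ELT-2 is the main GATA factor of the intestine.

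Markers of some tissues differed between genotypes. Of all tested genes, edgeR called 6.24% higher at 20 °C and 2.32% after heat shock. The intestine markers summed to 1489 to 2287 CPM in N2 and 2920 to 4271 CPM in the mutant at 20 °C, with 4 of 11 called higher by edgeR. After heat shock the sums were 1407 to 2107 CPM and 2371 to 3098 CPM, with 1 of 11 called. Muscle markers were at 731 to 1331 CPM against 1888 to 2450 CPM at 20 °C, with 1 of 5 called by edgeR. All 5 were higher at an unadjusted p under 0.05 in edgeR, and DESeq2 called 4 higher. Sperm markers, mainly major sperm protein genes, were at 4.68 to 32.9 CPM in N2 and 185 to 408 CPM in the mutant, with 28 of 37 called. Oocyte and eggshell markers were at 4036 to 10860 CPM against 7471 to 8549 CPM and overlapped, with 0 of 10 called by edgeR or DESeq2 and 0 of 10 at an unadjusted p under 0.05. Hypodermis markers were at 236 to 382 CPM against 371 to 525 CPM, with a median log2 fold change of -0.22 and 0 of 7 called by edgeR. At an unadjusted p under 0.05, 1 of 7 was higher and 1 lower, and DESeq2 called 1, *rol-6*, lower. Neuron markers were at 219 to 249 CPM against 218 to 283 CPM and overlapped, and early embryo markers at 5.35 to 8.94 CPM against 8.70 to 18.1 CPM. Of the embryo markers, edgeR called 1 of 4 tested higher, and DESeq2 called 1 higher and 1 lower. After heat shock, edgeR called 14 of 37 sperm markers and 1 of 5 muscle markers higher in the mutant. All 5 muscle markers were higher there at an unadjusted p under 0.05. Of the 7 hypodermis markers, 1 was higher and 3 were lower at that p. The part of these tissues in the levels of the *cyp* genes was not tested.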

How the data were processed

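RNA of whole day 1 adults was sequenced as poly-A mRNA in 12 libraries. The deposited values are raw read counts per gene, which the authors made with FastQC, HISAT2 and HTSeq on build WBcel235, per the labels and the paper's methods; versions, annotation release and strand setting are not given in the sources used here. The name C in the count columns was read as control, K in the titles.

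Counts were analysed in R 4.3.3 with edgeR 4.0.16: filterByExpr on the 4 groups, TMM scaling, 1 mean per group in a robust quasi-likelihood fit of all 12 libraries, and Benjamini-Hochberg adjustment over 17946 genes. Standard errors were derived from each fold change with its F statistic. Where a group had no count, the fold is a bound at a floor of 3 counts over the group. Exon lengths and positions came from the Ensembl annotation of WBcel235. The *cyp* genes and all lists were chosen with earlier results of these data known. The text names every called member, those with an unadjusted p under 0.05 (up to 12 per comparison by p), the 6 highest per kb and members with a known role. In simulated counts for the comparison at 20 °C (17515 genes), 100 genes were given a 2-fold change and 100 a 4-fold change. Of these, 15 and 72 were recovered, with 6 false calls, so many 2-fold differences can be missed. Recovery was not split by level and gives no power for members with few counts. Only 43 of the 74 members had a mean above 1 CPM. Fewer genes were changed than the 1226 called in the data, and recovery at that number was not tested.

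Replicate numbers were checked as pairs by the correlation of deviations from group means. Between the 2 mutant groups all 3 same-numbered pairs correlated, at 0.20 to 0.34, and each library correlated best with its own number; in the other pairs of groups 1 or 2 of 3 exceeded 0.1. Alternatives were DESeq2 1.42.0, RLE factors, no filter beyond 1 count, no robust estimation, only the groups compared, a replicate block, a minimum log2 fold change of 1 and leaving out each library. Sequence identity between copies and promoter motifs were not analysed here.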

Additional observations from a re-analysis of the deposited data

How the results depend on the processing

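At 20 °C, where 7 members were called, DESeq2 called 20, the newer quasi-likelihood form 12, the fit without the third N2 control and first N2 heat shock library 11, the fit of only the groups compared 2, and the fit without both first mutant libraries 2. With 1 library left out, the count was 2 to 9. Over all genes, the named fits called 2555, 1644, 2364, 341 and 284 in the same order, against 1226 in the fit reported. With 1 library left out, 280 to 1373 of all genes were called. After heat shock, where 5 were called, DESeq2 called 12, the newer form 8 and the fit without both first mutant libraries 3, and leaving out 1 library gave 1 to 2. Over all genes these counts were 1517, 982, 304 and 140 to 234, against 485. With heat shock in N2, where none was called, DESeq2 called 3 and leaving out 1 library gave 0 to 1. Over all genes these counts were 530 and 91 to 178, against 180. With heat shock in the mutant, DESeq2 called 3, the fit without the 2 far N2 libraries 1 and the mutant libraries alone with the replicate block 4. Over all genes these counts were 420, 248 and 619, against 102. The cause of these differences was not tested. The interaction gave 0 under every alternative run. The newer form, the fits without pairs of libraries and the fit of the mutants alone were chosen after seeing the data.

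With the replicate block in the model of all 12 libraries, the counts were 7, 5, 0, 0 and 0, and no count of calls moved. Calls in either comparison of genotypes came with a log2 fold change of at least 1. RLE factors gave a median log2 fold change of the members of 0.58 at 20 °C, beside 0.03 over all genes. No log2 fold change of a named member with an unadjusted p under 0.05 changed sign under any alternative. Genes of under 1 CPM had few counts to rest on.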
